A study of Mus musculus with 40 samples.

Results

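SINE elements (short interspersed elements) were followed in the RNA of mouse blood stem and progenitor cells as the 35 rows of class SINE in a deposited table of reads per transposable element (TE) subfamily. The class was read from each row's name, which gives subfamily, family and class, and no measured value entered the choice. The 35 subfamilies stand among 1146 TE subfamilies (680 LTR, 158 LINE, 197 DNA) and held 36.8 M reads (M, 1000000 reads), 56.1% of all TE reads, against 19.7% for LTR, 18.3% for LINE and 4.5% for DNA elements. All 35 passed the filter on low counts in every model.

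The samples were bulk RNA libraries of mouse bone marrow cells, 40 in all, in 12 groups. Long-term hematopoietic stem cells (LT-HSC), short-term hematopoietic stem cells (ST-HSC), common myeloid and granulocyte-macrophage progenitors as 1 population (CMP/GMP) and megakaryocyte-erythroid progenitors (MEP) were each profiled from wild-type (WT) and Dnmt3a knockout (Dnmt3a KO) mice with 4 libraries per group, except WT MEP with 3, numbered 1, 3 and 4. Bone marrow cells carrying the receptor c-kit were profiled from WT, Dnmt3a KO and Sting KO mice with 2 libraries each and from Dnmt3a/Sting double knockouts (DKO) with 3. Dnmt3a encodes a de novo DNA methyltransferase, and Sting, the gene Tmem173, an adaptor that relays the sensing of cytosolic DNA to interferon genes. The Dnmt3a KO was a floxed allele (Dnmt3a f/f) removed by Mx1-Cre, whose promoter responds to interferon. Not given in the sources used here are its induction, whether WT animals carried the Cre, how the Sting KO was made, and the age and number of animals. Nothing in the labels says which libraries came from separate animals, so every p-value is set against a spread between libraries that may be technical.

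SINEs are short retroelements without a protein of their own. RNA polymerase III transcribes them from a promoter inside the element, and LINE proteins copy the RNA back into the genome. In the mouse the B1 family, filed under the family name Alu in the table, descends from 7SL, the RNA of the signal recognition particle. B2 and ID elements descend from transfer RNAs, and ID from the neuronal RNA Bc1 that itself came from a transfer RNA. B4 elements join an ID part to a B1 part, and MIR and Deu elements are ancient families shared among vertebrates. Many SINE copies lie inside genes, in introns or untranslated ends. Reads of free polymerase III transcripts and reads of copies carried inside gene transcripts cannot be told apart in this table. DNA methylation and repressive chromatin are known to silence SINE copies in differentiated cells.

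The parent RNA of the ID family is shown because it carries the sequence from which those elements grew. Bc1 is a GENCODE M21 transcript on GRCm38, at chr7:144914470-144914637 on the plus strand. Capitals mark bases 16 to 24, the match to GCNNAGTGG, the core of the A box of the internal promoter. The motif was searched on both strands and occurs in 1843 of 32851 RefSeq promoter windows of 300 bases, 5.61%.
Bc1: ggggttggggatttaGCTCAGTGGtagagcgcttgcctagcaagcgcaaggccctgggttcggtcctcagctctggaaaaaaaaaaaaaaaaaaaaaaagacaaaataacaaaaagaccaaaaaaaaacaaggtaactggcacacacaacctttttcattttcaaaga

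The parent RNAs themselves were hardly sequenced in these polyA libraries. The 7SL genes Rn7s1 and Rn7s2 together had 0 reads in all 9 c-kit+ libraries, where a count of 0 allows up to 0.0751 to 0.109 counts per 1000000 gene reads (CPM), and 2 to 48 reads in the 23 sorted libraries with gene counts. Because both copies are identical, their reads cannot be divided between them. Bc1 had 0 to 8 reads per library. Rn7sk, another polymerase III transcript, had 77 to 930 reads in the sorted libraries and 0 to 6 in the c-kit+ libraries.

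Depth, labels and cell identity were checked before the comparisons. TE reads ran from 0.392 to 3.64 M in the sorted libraries and from 1.02 to 1.28 M in the c-kit+ libraries, and gene reads from 3.44 to 47.7 M and from 27.4 to 39.97 M. Dnmt3a was at 77.2 to 230 CPM in WT and 41.7 to 119 in KO LT-HSC, at 49.8 to 83.0 and 15.8 to 33.5 in CMP/GMP, and at 29.4 to 49.5 and 1.16 to 41.9 in MEP, where KO library 2 lay within the WT range. The library labelled Dnmt3a KO LT-HSC 3, at 119 CPM, lay above 3 of the 4 WT LT-HSC libraries. In the c-kit+ cells Dnmt3a was at 79.9 to 91.1 CPM in WT and 48.3 to 48.9 in Dnmt3a KO, and Tmem173 at 55.4 to 65.1 in WT and 9.61 to 10.2 in Sting KO. Summed LT-HSC markers reached 812 to 1719 CPM in LT-HSC and at most 143 elsewhere, granulocyte-macrophage markers 6145 to 31484 in CMP/GMP, and megakaryocyte-erythroid markers 8233 to 10846 in WT MEP against 3343 to 6780 in KO MEP. B cell markers summed to at most 5.35 CPM and T cell markers to at most 0.210 in the sorted libraries. Macrophage markers in c-kit+ cells summed to 737 to 751 CPM in WT, 390 to 397 in Dnmt3a KO, 235 to 236 in Sting KO and 300 to 388 in DKO. No gene columns could be assigned to the ST-HSC libraries, so their identity was not checked and their SINE reads are given only against TE totals.

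A set of 6 sorted libraries stood apart from the rest: WT LT-HSC 1, Dnmt3a KO LT-HSC 2, Dnmt3a KO MEP 2, 3 and 4, and Dnmt3a KO ST-HSC 2. Only the first was WT, and none was of CMP/GMP. The 5 of them with gene counts had 10706 to 12970 genes with a read, against 13425 to 15068 in the other 18, and 3.44 to 25.9 M gene reads against 28.9 to 47.7 M. They also held 6.21 to 7.76 SINE reads per 100 gene reads against 1.18 to 4.41, and 9.41 to 12.4 TE reads of all classes against 2.22 to 8.16. SINE reads were 60.8% to 69.8% of TE reads in the 6 libraries and 50.2% to 59.7% in the other 25. In the 5 libraries with gene counts Rn7sk was at 16.3 to 55.0 CPM, against 1.87 to 8.85 in the other 18. The nuclear RNA Malat1 was at 4619 to 12025 CPM against 2681 to 8519, in ranges that overlap. The part of these libraries and of both RNAs in the results was not tested. Since 3 of the 4 KO MEP libraries stood apart, the main Dnmt3a differences in MEP are given with and without them.

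Some libraries of the same group were closer than the rest. Dnmt3a KO MEP 3 and 4 correlated at a Pearson r of 0.997 across genes against 0.862 to 0.893 for the other KO MEP pairs, WT CMP/GMP 2 and 4 at 0.996 against 0.965 to 0.975, and Dnmt3a KO ST-HSC 3 and 4 at 0.995 across TE subfamilies against 0.893 to 0.929. The lowest chi-square per degree of freedom among pairs was 5.18, so all differed by more than sampling noise and were kept as separate libraries.

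The SINE reads were spread over 6 families. B1 held 14.4 M reads in 16 subfamilies (39.1% of SINE reads), B2 11.7 M in 5 (31.9%), B4 7.65 M in 4 (20.8%), MIR 1.83 M in 4 (4.97%), ID 1.16 M in 4 (3.15%) and Deu 41404 in 2 (0.113%). The subfamily with the most reads was B3 of the B2 family with 3964151 reads (10.8% of SINE reads), followed by B2_Mm2 with 2825761 (7.69%), ID_B1, a B4-family element, with 2478262 (6.74%), B1_Mus1 with 2390894 (6.50%) and RSINE1, of the B4 family, with 2368328 (6.44%). B1_Mus2 had 1803236 reads (4.91%), MIR 643841 (1.75%), MIRb 616469 (1.68%), ID4_ 494348 (1.345%) and ID4 457398 (1.24%). The smallest were FAM with 890 reads, 0 to 86 per library, and AmnSINE2 with 4419, 0 to 333 per library. Copy number and element length differ between families, so these shares are shares of reads and not levels per copy.

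**Figure D1:**
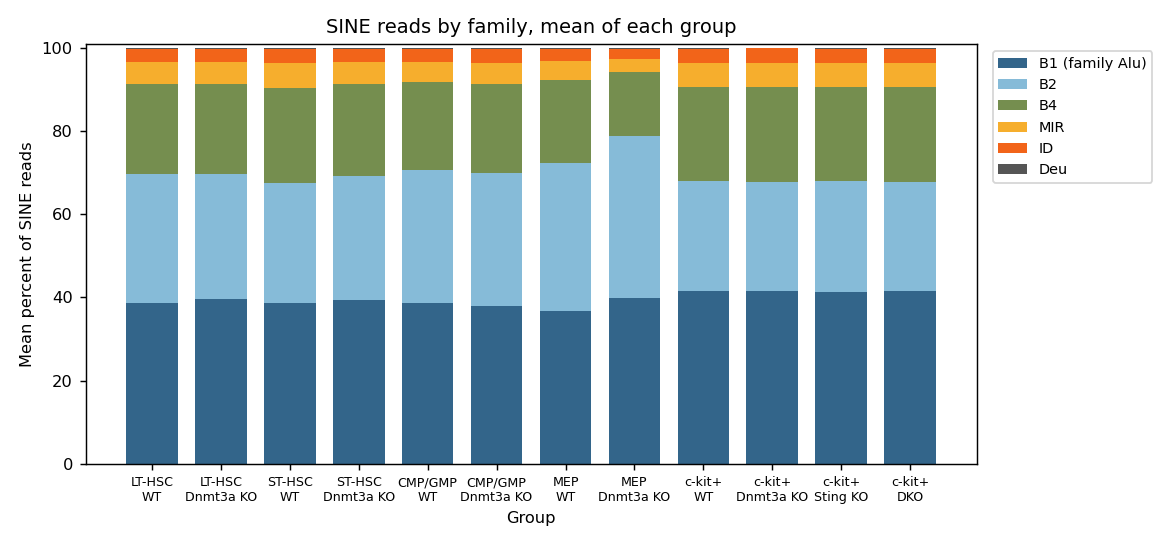
Mean percent of SINE reads held by each SINE family (stacked bars, vertical axis from 0) in the 12 groups. B1 is the tallest segment in all 12 bars, and B2 is taller in the 2 MEP bars (35.5% and 38.9%) than in the c-kit+ bars (26.3% to 26.7%).

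Family composition was alike in outline across groups and varied most in MEP. In the plot of family shares B1 held a mean of 38.8% ± 0.644 (SD, n = 4) of SINE reads in WT LT-HSC and 36.8% ± 2.66 (n = 3) in WT MEP, and 41.4% to 41.5% in the group means of c-kit+ cells. B2 held 30.9% ± 4.09 in WT LT-HSC, 28.9% ± 0.885 in WT ST-HSC, 32.1% ± 1.63 in WT CMP/GMP and 35.5% ± 5.99 in WT MEP, and 26.3% to 26.7% in the c-kit+ group means. The SD of B2 in WT LT-HSC (36.99% in library 1, 28.2% to 29.7% in the others) covers its differences from WT ST-HSC and WT CMP/GMP. The WT ST-HSC libraries held 27.8% to 29.9% and the WT CMP/GMP libraries 30.2% to 34.2%, without overlap. That pair was not tested. B4 ranged from a mean of 15.5% ± 4.28 in KO MEP to 22.9% in WT ST-HSC, and MIR from 3.03% ± 1.14 in KO MEP to 5.89% ± 0.402 in WT ST-HSC. ID held 2.56% to 3.61% and Deu 0.0824% to 0.184% of SINE reads in the group means. The c-kit+ libraries differed from each other least, with B1 at 41.2% to 41.8% and B2 at 26.0% to 26.9% over all 9. Their cells were selected by another marker, and cell population and library preparation run cannot be told apart between them and the sorted libraries.

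Among the WT populations with gene counts, LT-HSC had the highest mean of SINE reads relative to gene reads. ST-HSC could not be ranked, for lack of assigned gene counts. The 4 WT LT-HSC libraries held 7.76, 2.26, 3.15 and 3.44 SINE reads per 100 gene reads, the 4 WT CMP/GMP libraries 2.14, 2.19, 1.87 and 2.26, and the 3 WT MEP libraries 2.43, 1.57 and 2.49. LT-HSC and CMP/GMP did not overlap, although the lowest LT-HSC library and the highest CMP/GMP library were both 2.26 when rounded, while LT-HSC and MEP did overlap. The lack of overlap with CMP/GMP was not particular to SINEs. TE reads of all classes per 100 gene reads were 4.16 to 12.4 in LT-HSC and 3.34 to 3.94 in CMP/GMP. LINE, LTR and DNA reads did not overlap either. WT LT-HSC library 1, the highest, also held granulocyte-macrophage markers at 3370 CPM against 352 to 491 in the other 3, and their part in the result was not tested. The means were 4.15 ± 2.46 (SD, n = 4), 2.11 ± 0.169 (n = 4) and 2.17 ± 0.517 (n = 3). The difference of 2.04 between LT-HSC and CMP/GMP had an exact two-sided permutation p of 0.0286, the smallest 4 against 4 libraries allow, and an adjusted p of 0.286 over the 10 comparisons of this measure. Without WT LT-HSC library 1, which stood apart, the difference was 0.835 with an exact permutation p of 0.0571. LT-HSC exceeded MEP by 1.99 (exact permutation p = 0.171), and by 0.784 without WT LT-HSC library 1, and CMP/GMP and MEP differed by -0.0513 (exact permutation p = 0.914). In bulk libraries a higher SINE level and a lower yield of gene RNA per cell give the same ratio, and fewer cells of a type and less RNA per cell cannot be told apart.

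**Figure D2:**
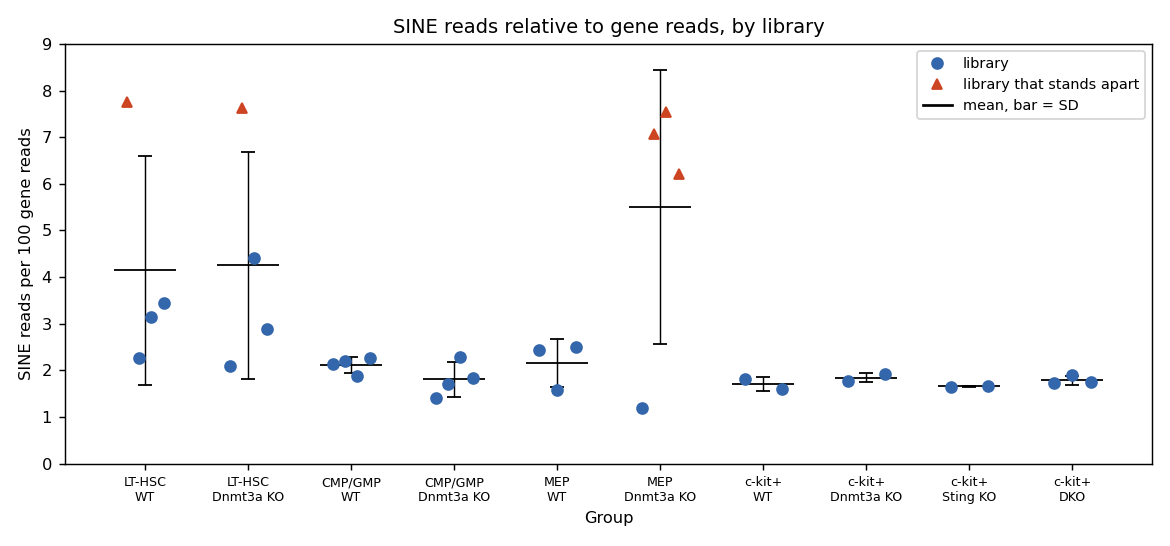
SINE reads per 100 gene reads (vertical axis) in each library of the 10 groups with gene counts; circles are libraries, red triangles are libraries that stand apart, lines are means and bars SDs. The 5 red triangles lie between 6.21 and 7.76, above every circle, the highest of which is at 4.41.

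By family, the contrast between WT LT-HSC and CMP/GMP passed the test for ID and MIR and not for the other SINE families. ID elements had 2017, 731, 1130 and 1203 CPM in LT-HSC and 677, 644, 613 and 710 in CMP/GMP, so the groups did not overlap. MIR elements had 2900, 1214, 1977 and 2035 in LT-HSC and 1000, 1012, 1060 and 1123 in CMP/GMP, again without overlap. In the edgeR quasi-likelihood test over all TE families, scaled to gene reads, ID was higher in LT-HSC by a log2 fold change of 0.77 ± 0.28 (SE; adjusted p = 0.0443) and MIR by 0.78 ± 0.28 (adjusted p = 0.0440), among 13 of 57 families called (22.8%). In the same edgeR fit the log2 fold change was 0.81 ± 0.36 for B1 (adjusted p = 0.0881) and 0.83 ± 0.39 for B2 (adjusted p = 0.0906). It was 0.745 ± 0.33 for B4 (adjusted p = 0.084) and 0.35 ± 0.33 for Deu (adjusted p = 0.376). None of these passed. The calls did not hold when libraries were scaled to TE reads (ID -0.05, adjusted p = 0.710; MIR -0.02, adjusted p = 0.973), nor without WT LT-HSC library 1 (ID 0.43, adjusted p = 0.115; MIR 0.53, adjusted p = 0.0662), where B1 gave 0.27 and B2 0.12. They were lost in 8 (ID) and 9 (MIR) of the 11 edgeR fits that left out 1 library.

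No single SINE subfamily passed the edgeR test between WT populations. Between LT-HSC and CMP/GMP, 7 of 964 TE subfamilies were called (0.726%) and 0 of 35 SINE subfamilies, although all 35 had a positive log2 fold change, with a median of 0.76 against 0.78 over all TE subfamilies, and 28 were higher at an unadjusted p under 0.05 against 373 of 964 TE subfamilies (38.7%) in either direction. DESeq2 called 27 SINE subfamilies and 348 of 964 TE subfamilies (36.1%), and edgeR without WT LT-HSC library 2 called 31 SINE subfamilies and 375 of 953 TE subfamilies (39.3%). Between LT-HSC and MEP edgeR again called 7 of 964 TE subfamilies (0.726%) and 0 SINE subfamilies, with 25 higher at an unadjusted p under 0.05 against 282 of 964 TE subfamilies (29.3%) in either direction, and a SINE median of 0.80 beside a TE median of 0.75. DESeq2 called 5 SINE subfamilies and 167 of 964 TE subfamilies (17.3%), edgeR with the replicate block 11 and 166 (17.2%), and edgeR without WT LT-HSC library 2 called 27 and 236 of 953 (24.8%). The MIR family had 1073, 817 and 922 CPM in WT MEP, below all 4 LT-HSC libraries, and a log2 fold change of 0.92 ± 0.31 between LT-HSC and MEP (edgeR adjusted p = 0.0805, with 1 of 57 families called, 1.75%), which passed without WT LT-HSC library 1 (0.67, adjusted p = 0.0442). Between CMP/GMP and MEP 1 of 964 TE subfamilies was called (0.104%), and between LT-HSC and ST-HSC, scaled to TE reads, 0 of 1006 (0%). In both, 0 SINE subfamilies were called by edgeR or DESeq2, and 0 were under an unadjusted p of 0.05. The SINE medians lay close to the medians of all TE subfamilies in the contrasts of LT-HSC.

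Loss of Dnmt3a left SINE levels in LT-HSC within the spread of the libraries. KO LT-HSC held 2.09, 7.62, 4.41 and 2.88 SINE reads per 100 gene reads, a mean of 4.25 ± 2.44 (n = 4) beside 4.15 ± 2.46 in WT, and the ranges overlapped across nearly their whole width (difference 0.0977, exact permutation p = 1). B1 elements had 8182, 32264, 16771 and 11181 CPM in KO against 30585, 8853, 12128 and 13066 in WT. Each genotype has 1 library that stands apart, and it is the highest in each. The edgeR fit called 0 of 904 TE subfamilies (0%) and 0 of 35 SINE subfamilies, as did DESeq2 for the SINEs, with 0 SINE subfamilies under an unadjusted p of 0.05 and a SINE median log2 fold change of 0.0547 beside a TE median of 0.0471.

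In ST-HSC the comparison rests on shares of TE reads. SINEs made up 56.2%, 54.4%, 53.9% and 53.5% of TE reads in WT and 53.9%, 60.8%, 54.5% and 55.0% in KO. The KO library 2, which stands apart, was above all others, and the remaining libraries of the 2 genotypes overlapped. The means were 54.5% ± 1.22 and 56.0% ± 3.23 (exact permutation p = 0.543). edgeR called 0 of 944 TE subfamilies (0%) and 0 SINE subfamilies, DESeq2 likewise 0, with 0 under an unadjusted p of 0.05, and the SINE median log2 fold change was 0.05 against -0.01 over all TE subfamilies.

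In CMP/GMP the SINE values leaned lower in Dnmt3a KO without passing a test. KO libraries held 1.40, 1.70, 2.29 and 1.84 SINE reads per 100 gene reads against 2.14, 2.19, 1.87 and 2.26 in WT, and the highest of all 8 was a KO library. The difference was -0.307 (exact permutation p = 0.2, adjusted p = 0.457). B1 had a log2 fold change of -0.25 ± 0.14 and B2 of -0.24 ± 0.15 (edgeR adjusted p = 0.541 for both). Of the 35 subfamilies 34 had a negative log2 fold change, with a median of -0.22 against -0.20 over all TE subfamilies, and edgeR called 0 of 893 TE subfamilies (0%), with 0 SINE subfamilies called by DESeq2 or under an unadjusted p of 0.05. Without KO library 3, the highest of the 8, the log2 fold change was -0.38 for B1 (edgeR adjusted p = 0.00955) and -0.32 for B2 (adjusted p = 0.0183). These were the extremes of the fits that left out 1 library, which ran to -0.17 for both families. The number of TE families called in that fit is not given here. Stromal markers moved beside this contrast, at 2.23 to 88.4 CPM in WT and 1.44 to 3.47 in KO, and granulocyte-macrophage markers at 6145 to 31484 in WT and 9046 to 22115 in KO; their part in the result was not tested.

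Of the 5 populations MEP had the largest median SINE difference between Dnmt3a KO and WT, and it rested on the libraries that stand apart. KO MEP held 1.18, 7.07, 7.55 and 6.21 SINE reads per 100 gene reads against 2.43, 1.57 and 2.49 in WT. KO library 1 was below all WT libraries and the other 3 above them. The means were 5.50 ± 2.93 (n = 4) and 2.17 ± 0.517 (n = 3), a difference of 3.34 (exact permutation p = 0.229, adjusted p = 0.457; 4 against 3 libraries cannot go below 0.0571). With the 3 libraries that stand apart left out, the difference was -0.982. Megakaryocyte-erythroid markers, in ranges that do not overlap, were lower in KO (given above). Granulocyte-macrophage markers were at 1176, 2585, 59.9 and 64.7 CPM in KO MEP and 513, 320 and 71.9 in WT. LT-HSC markers were at 133, 108, 23.0 and 18.3 in KO and 30.2, 58.0 and 29.7 in WT. Macrophage markers were at 47.2, 1.16, 2.55 and 1.70 in KO and 7.75, 0.888 and 1.97 in WT. The part of all these markers in the result was not tested.

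B1 elements had 4602, 33024, 25110 and 25436 CPM in KO MEP and 9246, 6058 and 8409 in WT. B2 elements had 3829, 21577, 39127 and 25432 in KO and 8232, 4793 and 10510 in WT. In both families KO library 1 was below all WT libraries and the other 3 KO libraries above them. The log2 fold changes were 1.66 ± 0.70 for B1 and 1.71 ± 0.70 for B2 (edgeR adjusted p = 0.178 for both), 1.204 ± 0.64 for ID (adjusted p = 0.285), 1.02 ± 0.65 for B4 (adjusted p = 0.292) and 0.79 ± 0.62 for MIR (adjusted p = 0.356). No TE family was called (0 of 48, 0%). MIR, the older family, had 541, 2238, 1515 and 1470 CPM in KO MEP, a narrower span than B1 or B2.

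Among the subfamilies in MEP, those with the largest log2 fold changes belonged to B1 and B2. B2_Mm1a, counted among the youngest B2 elements, had 640, 3567, 14987 and 7396 CPM in KO and 1374, 600 and 2950 in WT. B1_Mm, a young B1 element, had 365, 3225, 2579 and 2751 in KO and 663, 442 and 616 in WT. B3, an older relative of B2, had 1277, 6559, 4901 and 4852 in KO and 2673, 1754 and 2425 in WT. For all 3, KO library 1 lay in or below the WT range and the other 3 KO libraries above it. The edgeR log2 fold changes were 2.23 ± 0.89 for B2_Mm1a (adjusted p = 0.236), 2.14 ± 0.78 for B1_Mm (0.220), 1.97 ± 0.79 for B1_Mus1 (0.236), 1.81 ± 0.79 for B2_Mm2 (0.263), 1.12 ± 0.74 for B3 (0.366), 1.21 ± 0.72 for the older B1 element PB1D10 (0.336) and 0.67 ± 0.67 for MIRb (0.520). B2_Mm1a, B1_Mm and PB1D10 were chosen for naming after their values were seen. Of the 35 subfamilies 34 had a positive log2 fold change, with a median of 1.26 against 0.86 over all TE subfamilies, and edgeR called 0 of 858 TE subfamilies (0%). Of all TE subfamilies 16.9% were under an unadjusted p of 0.05. The 9 SINE subfamilies among them were all higher in KO and all of B1 or B2 (B1_Mm, B1_Mus1, B1_Mus2, B1_Mur1, B1_Mur2, B1_Mur4, B2_Mm1a, B2_Mm1t and B2_Mm2), and DESeq2 called 0.

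The MEP calls turned on which KO libraries entered the fit. Without KO library 1, edgeR called 363 of 827 TE subfamilies (43.9%) and 32 of 35 SINE subfamilies. Of the KO libraries left, 3 and 4 were the close pair described above and counted as separate, so the p-values of this fit may be too small. Its log2 fold changes were 1.99 for B1 (edgeR adjusted p = 1.5e-08), 2.07 for B2, 1.501 for ID, 1.30 for B4 and 1.05 for MIR. B2_Mm1a gave 2.62 (adjusted p = 0.0146) and B1_Mm 2.49. Without KO libraries 2, 3 and 4, where the lone KO library is assumed to vary like the WT libraries, the same changes were -0.73 for B1, -0.98 for B2, -0.74 for ID, -0.75 for B4 and MIR, -1.30 for B2_Mm1a and -0.61 for B1_Mm. The Dnmt3a effect was also compared among LT-HSC, CMP/GMP and MEP in 1 edgeR F-test. It called 0 of 1016 TE subfamilies (0%) and 0 SINE subfamilies, with 8 at an unadjusted p under 0.05, and 176 of 1013 TE subfamilies (17.4%) and 21 SINE subfamilies without KO MEP library 1.

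**Figure D3:**
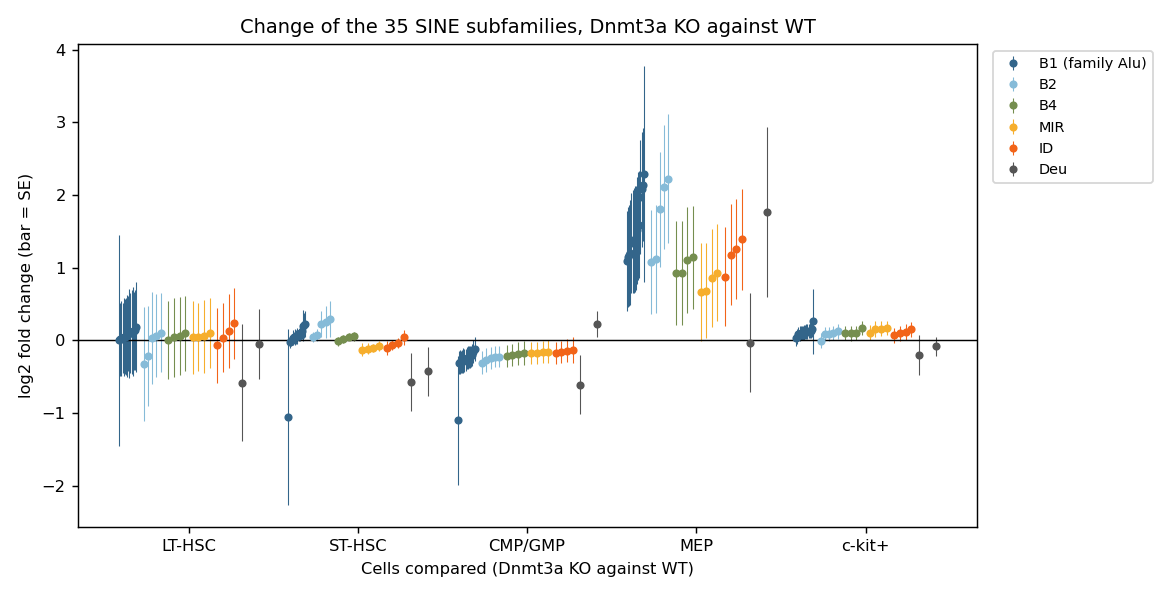
Log2 fold change (vertical axis) of the 35 SINE subfamilies, coloured by family, Dnmt3a KO against WT, in 5 cell populations (horizontal axis); points are edgeR estimates and bars their SEs, with ST-HSC scaled to TE reads and the others to gene reads. In MEP 34 of the 35 points lie above 0, with a median of 1.26 and long bars, those in CMP/GMP mostly just below 0 (median -0.22), and those in c-kit+ cells mostly just above it (median 0.11).

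In c-kit+ cells the SINE levels were close to each other in all 4 genotypes. SINE reads per 100 gene reads were 1.81 and 1.61 in WT, 1.78 and 1.91 in Dnmt3a KO, 1.65 and 1.67 in Sting KO, and 1.73, 1.89 and 1.74 in DKO. WT and Dnmt3a KO overlapped, while all DKO libraries lay above both Sting KO libraries. Dnmt3a KO exceeded WT by 0.137 (exact permutation p = 0.667; the smallest possible is 0.333) and DKO exceeded Sting KO by 0.128 (exact permutation p = 0.2, the smallest possible). Sting KO differed from WT by -0.0503 and DKO from Dnmt3a KO by -0.0589. With 2 or 3 libraries per group none of these tests can pass 0.05.

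The edgeR fit over the 9 c-kit+ libraries gave small log2 fold changes for the SINE families. B1 elements had 7508 and 6675 CPM in WT, 7360 and 7934 in Dnmt3a KO, 6848 and 6876 in Sting KO, and 7166, 7897 and 7170 in DKO. B2 elements had 4318 to 5007 over all 9 libraries, and MIR 1011 and 900 in WT against 1028 and 1108 in Dnmt3a KO. Dnmt3a KO against WT gave 0.10 ± 0.10 for B1 (adjusted p = 0.502), 0.09 ± 0.10 for B2 (0.583) and 0.15 ± 0.10 for MIR (0.363). B2_Mm1a changed by 0.12 ± 0.10 (adjusted p = 0.555), where it had 2.23 ± 0.89 in MEP and -0.26 ± 0.17 (adjusted p = 0.623) in CMP/GMP.

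No SINE subfamily was called by edgeR or DESeq2 in any c-kit+ comparison. edgeR called 11 of 916 TE subfamilies (1.2%) between Dnmt3a KO and WT, 5 (0.546%) between Sting KO and WT, 4 (0.437%) between DKO and Dnmt3a KO, 0 (0%) between DKO and Sting KO, and 2 (0.218%) for the difference between the Dnmt3a effect with and without Sting. In these comparisons 0 SINE subfamilies were under an unadjusted p of 0.05, except MIR3 between DKO and Sting KO, which was higher in DKO by 0.21 on the log2 scale (adjusted p = 0.540). The SINE medians were 0.11 for Dnmt3a KO against WT (TE median 0.15) and 0.10 for DKO against Sting KO (TE median 0.11), with 32 of 35 positive in each, and -0.02 for DKO against Dnmt3a KO (TE median -0.03). These comparisons share libraries, so their directions are not independent.

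The make-up within a family was followed by the share of its youngest subfamilies, because B1_Mm, B1_Mus1 and B1_Mus2 in B1 and B2_Mm1a, B2_Mm1t and B2_Mm2 in B2 hold the most recent insertions. The young share of B1 reads was 43.0%, 35.5%, 32.3% and 32.9% in WT LT-HSC, 33.9%, 43.6%, 33.5% and 35.7% in KO LT-HSC, 35.5%, 33.6%, 33.5% and 34.5% in WT ST-HSC, and 34.7%, 41.6%, 34.1% and 34.8% in KO ST-HSC. In CMP/GMP it was 35.02%, 36.3%, 33.1% and 35.6% in WT and 33.5%, 34.4%, 35.1% and 35.7% in KO, and in MEP 36.2%, 34.9% and 36.7% in WT and 36.5%, 44.4%, 48.6% and 50.4% in KO. The 6 libraries that stand apart held 41.6% to 50.4% and the other 25 sorted libraries 32.3% to 36.7%, without overlap. Of the 6, WT LT-HSC library 1 was the only WT library. The c-kit+ libraries held 31.0% to 31.9%. KO MEP exceeded WT MEP by 9.03 percentage points (exact permutation p = 0.114, adjusted p = 1 over 12 comparisons) and by 0.532 without the libraries that stand apart.

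The young share of B2 reads is a measure added after the values were seen. It was 60.5%, 44.2%, 39.6% and 39.4% in WT LT-HSC, 43.2%, 42.7%, 39.5% and 39.2% in WT ST-HSC, 48.1%, 54.4%, 47.9% and 46.0% in WT CMP/GMP, and 52.1%, 44.8% and 65.6% in WT MEP. In KO it was 39.6%, 55.5%, 39.9% and 42.3% in LT-HSC, 42.0%, 50.05%, 42.4% and 39.98% in ST-HSC, 50.02%, 50.03%, 44.7% and 51.3% in CMP/GMP, and 50.3%, 55.7%, 81.4% and 71.7% in MEP. Leaving aside the libraries that stand apart, the stem cell libraries lay at or below 44.2% and the CMP/GMP and MEP libraries at or above 44.7%. WT LT-HSC and CMP/GMP differed by -3.16 percentage points (exact permutation p = 0.543), and by -8.01 without WT LT-HSC library 1 (exact permutation p = 0.0571, the smallest possible for 3 against 4 libraries). KO and WT MEP differed by 10.6 points (exact permutation p = 0.343, adjusted p = 0.779), and by -3.95 without the libraries that stand apart. The c-kit+ libraries held 36.9% to 38.3%.

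**Figure D4:**
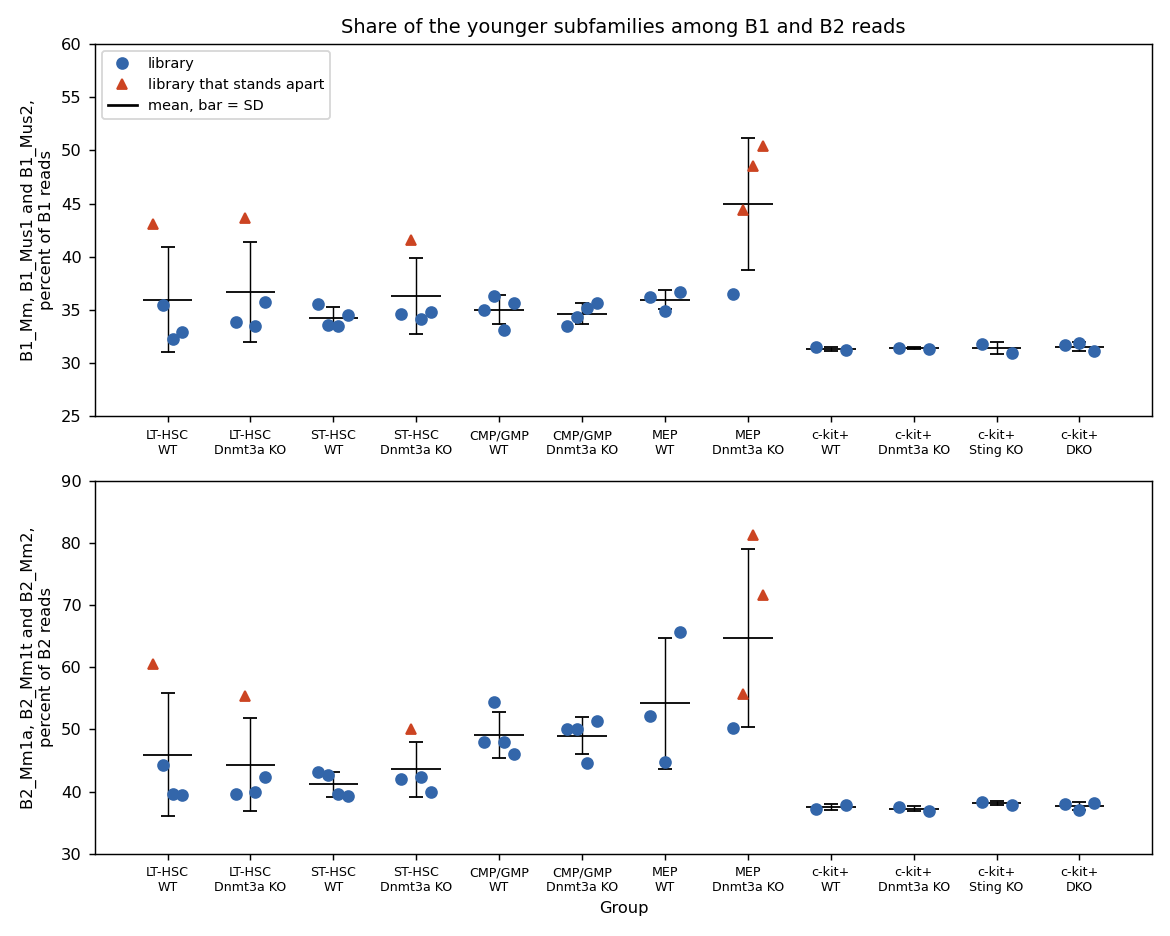
Percent of B1 reads (top, axis from 25) and of B2 reads (bottom, axis from 30) in the youngest subfamilies, by library and group; circles are libraries, red triangles libraries that stand apart, lines means and bars SDs. For B1 the triangles (41.6% to 50.4%) lie above every circle, and for B2 the circles of CMP/GMP and MEP lie above those of the stem cells.

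Within B2, the mean ratio of B2_Mm1a to B2_Mm2 reads was lowest in c-kit+ cells and highest in MEP. This ratio was picked after the values were seen and is given without a test. Its means were 0.461 ± 0.217 in WT and 0.398 ± 0.104 in KO LT-HSC, 0.372 ± 0.0525 and 0.390 ± 0.0358 in ST-HSC, 0.626 ± 0.0987 and 0.616 ± 0.0795 in CMP/GMP, and 0.908 ± 0.458 and 1.13 ± 0.590 in MEP, with n = 4 per group and n = 3 for WT MEP. WT MEP libraries ran from 0.562 to 1.43 and KO MEP libraries from 0.623 to 1.93, with KO library 1, which does not stand apart, at 0.756. All 9 c-kit+ libraries lay between 0.209 and 0.257. In each population the SDs of WT and KO overlapped.

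**Figure D5:**
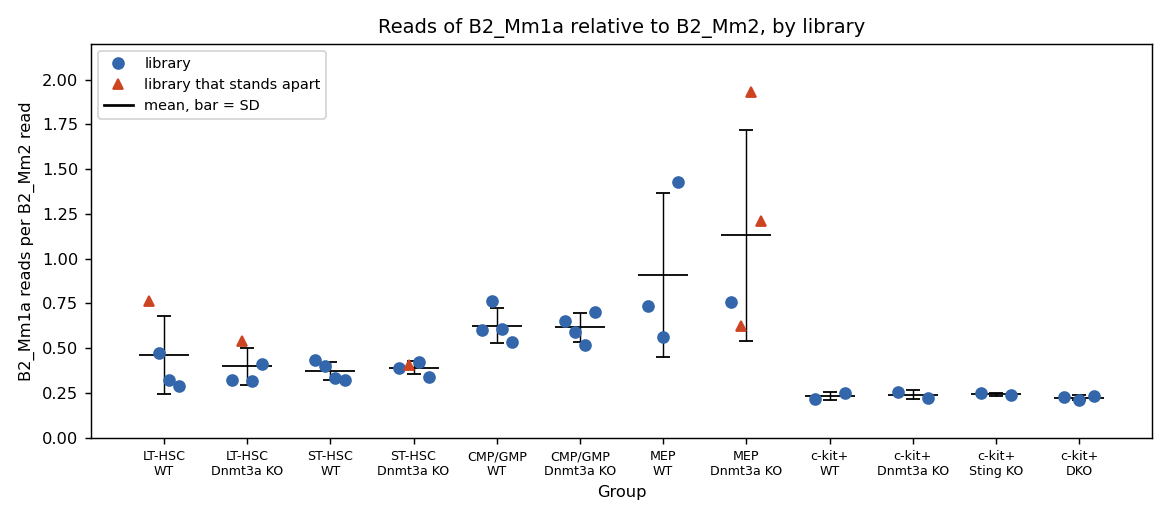
Reads of B2_Mm1a per read of B2_Mm2 (vertical axis) by library in the 12 groups; circles are libraries, red triangles libraries that stand apart, lines means and bars SDs. The ratio lies at 0.209 to 0.257 in c-kit+ cells and reaches 1.93 in MEP.

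Against all TE reads, B2_Mm1a was again lowest in c-kit+ cells, and its highest values were in MEP libraries. It had 10.9 to 18.1 reads per 1000 TE reads in the LT-HSC libraries that do not stand apart (46.0 and 31.8 in those that do), 11.4 to 17.0 in ST-HSC (22.7), 20.04 to 35.4 in CMP/GMP, and 7.30 to 8.74 in c-kit+ cells. In MEP it had 28.3, 20.9 and 70.6 in WT and 28.8, 31.3, 138.6 and 78.6 in KO. Of these, 28.3 and 20.9 in WT and 28.8 and 31.3 in KO lay within the CMP/GMP range. B3 of the same family varied less, at 45.3 to 67.9 in the sorted and 55.6 to 58.8 in the c-kit+ libraries. In edgeR, B2_Mm1a changed by 0.82 ± 0.71 between WT LT-HSC and CMP/GMP (adjusted p = 0.407), by -0.72 ± 0.75 between CMP/GMP and MEP (adjusted p = 0.999) and by 0.79 ± 0.56 between LT-HSC and ST-HSC (adjusted p = 0.860), none past the test. Without WT LT-HSC library 1 the first and last of these turned to -0.68 and -0.08. Reads of B1_Mm per read of PB1D10 were 1.09 to 1.62 in the libraries that stand apart, 0.565 to 0.774 in the other sorted libraries and 0.470 to 0.496 in c-kit+ cells.

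Genes that make, bind, silence or sense SINE RNA were read from the gene table in 5 lists. In the sorted populations none of the listed genes passed the edgeR test between Dnmt3a KO and WT, where 0 of 12806 genes in LT-HSC, 0 of 13192 in CMP/GMP and 0 of 12412 in MEP were called (0% in each). DESeq2 called 1 listed gene in CMP/GMP, where it called 157 of 13192 genes (1.19%), and 2 in MEP, where it called 534 of 12412 (4.3%). In MEP the RNA-binding pair of the signal recognition particle that also binds B1 RNA gave 1.16 ± 0.35 for Srp14 (edgeR adjusted p = 0.319) and 0.80 for Srp9 (adjusted p = 0.410), and 0.31 and 0.06 without the libraries that stand apart. Without KO MEP library 1, edgeR called 20 listed genes among 2774 of 11857 genes (23.4%).

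In c-kit+ cells 3 of the 5 genes for editing and sensing double-stranded RNA were higher in Dnmt3a KO than in WT. Adar, the enzyme that deaminates adenosines in paired SINE copies, was at 92.2 and 87.0 CPM in WT, 149.8 and 142.7 in Dnmt3a KO, 91.8 and 88.7 in Sting KO, and 100.5, 81.4 and 94.1 in DKO. Ifih1, which encodes the double-stranded RNA sensor MDA5, was at 33.8 and 37.1 in WT, 66.5 and 61.0 in Dnmt3a KO, 29.7 and 34.1 in Sting KO, and 41.6, 34.3 and 38.7 in DKO. Eif2ak2, which encodes the kinase PKR, was at 70.2 and 81.5 in WT, 135.6 and 116.4 in Dnmt3a KO, 78.2 and 79.8 in Sting KO, and 80.9, 69.9 and 84.0 in DKO. For each gene both Dnmt3a KO libraries lay above all 7 others.

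The edgeR log2 fold changes between Dnmt3a KO and WT were 0.70 ± 0.09 for Adar (adjusted p = 0.00678), 0.84 ± 0.12 for Ifih1 (0.0104) and 0.73 ± 0.11 for Eif2ak2 (0.0161), with 96 of 15953 genes called (0.602%; 54 higher, 42 lower). The median over the 5 genes was 0.73 against -0.01 over all genes. The other 2, Adarb1 and Zbp1, were not called. Of the other lists, 0 of 13 polymerase III subunits, 0 of 12 polymerase III factors, 0 of 6 SINE RNA binding genes in the table and 0 of 15 silencing genes were called. Each of the 3 calls held in 6 of the 9 fits that left out 1 library, and was lost without Dnmt3a KO 1, WT 1 or WT 2. Macrophage markers were lower in Dnmt3a KO (390 to 397 CPM against 737 to 751 in WT), as were stromal markers (11.2 to 32.5 against 104 to 120.5), and their part in these values was not tested.

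The same 3 genes were lower in DKO than in Dnmt3a KO, a comparison that uses the same Dnmt3a KO libraries. Adar changed by -0.64 ± 0.08 (edgeR adjusted p = 0.0114), Ifih1 by -0.71 ± 0.11 (0.0245) and Eif2ak2 by -0.66 ± 0.10 (0.0258), with 25 of 15953 genes called (0.157%), all lower. The calls held in 7, 5 and 5 of 9 fits without 1 library. With the replicate number as a block, 1 listed gene was called among 29 genes (0.182%). The difference between the Dnmt3a effect with and without Sting was -0.69 ± 0.12 for Adar (edgeR adjusted p = 0.0566, with 42 of 15953 genes called, 0.263%), so edgeR called 0 listed genes for it, while DESeq2 called 2 among 198 genes (1.24%). Adar changed by 0.05 between Sting KO and WT (126 of 15953 genes called, 0.79%) and by 0.02 between DKO and Sting KO (0 called, 0%), where none of the listed genes passed. In these same comparisons the SINE families themselves passed no test, as given above.

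Stretches of 30 bases at the start sites of these 3 genes are shown because each holds GAAANNGAA, a core of the interferon-responsive promoter element, marked in capitals. The sequences are from RefSeq windows on GRCm38.p6, Adar at chr3:89730738-89730767 on the plus strand, and Ifih1 at chr2:62646206-62646235 and Eif2ak2 at chr17:78882535-78882564 on the minus strand, all written 5′ to 3′. The motif was searched on both strands in windows from 250 bases before to 50 after the start and occurs in 2812 of 32851 windows (8.56%). Each of the Ifih1 and Eif2ak2 windows holds 2 matches, which overlap in Eif2ak2, and of the 3 Adar windows 1 holds 2 and the other two none. In the stretches shown the match in Ifih1 and the first of the 2 in Eif2ak2 are followed by a further A, and the match in Adar is not.
Adar: ttttcaaggaaacGAAAGTGAActctgggg
Ifih1: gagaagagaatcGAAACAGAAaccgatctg
Eif2ak2: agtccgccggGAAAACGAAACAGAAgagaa

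Between WT populations more of the listed genes differed, against a larger background. The 5 lists held 13, 12, 6, 15 and 5 tested genes in both contrasts of LT-HSC. Between LT-HSC and CMP/GMP 1305 of 14658 genes were called (8.9%), among them 7 listed genes. Brf1, part of the factor that positions polymerase III, was higher in LT-HSC by a log2 fold change of 1.67 ± 0.38 (edgeR adjusted p = 0.016). Ssb, the La protein that binds the ends of polymerase III transcripts, changed by -0.88 ± 0.21 (adjusted p = 0.0194).

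Trove2, the Ro protein that binds small structured RNAs, was at 129.9, 38.4, 61.9 and 96.8 CPM in WT LT-HSC, 13.3, 18.5, 7.495 and 23.0 in CMP/GMP and 11.8, 3.44 and 4.91 in MEP. LT-HSC lay above both without overlap, by 2.21 ± 0.52 over CMP/GMP (edgeR adjusted p = 0.0183) and 3.41 ± 0.61 over MEP (adjusted p = 0.00314). Of the silencing genes, the maintenance methylase Dnmt1 was at 179.5, 148.8, 129.7 and 189.0 in LT-HSC and 377.4, 273.8, 285.1 and 358.6 in CMP/GMP (-1.19 ± 0.25, adjusted p = 0.0101). Uhrf1, which guides Dnmt1 to replicated DNA, was at 158.2, 178.2, 77.4 and 132.1 in LT-HSC and 362.2, 320.7, 259.6 and 477.9 in CMP/GMP (-1.56 ± 0.27, adjusted p = 0.00421). Ifih1 was higher in LT-HSC than in CMP/GMP by 1.31 ± 0.34 (adjusted p = 0.0273).

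Between LT-HSC and MEP 1941 of 14658 genes were called (13.2%), 4 of them listed. Ssb changed by a log2 fold change of -0.74 ± 0.22 (edgeR adjusted p = 0.041) and Dnmt3b, a de novo methylase, by 1.64 ± 0.45 (0.0296), beside Trove2. Between CMP/GMP and MEP none of the listed genes passed (521 of 14658 genes called, 3.55%). Of the calls between LT-HSC and CMP/GMP, those of Dnmt1 and Uhrf1 held in all 11 fits without 1 library, those of Brf1, Ssb and Trove2 in 9 and that of Ifih1 in 6. Between LT-HSC and MEP that of Trove2 held in 11, of Dnmt3b in 9 and of Ssb in 3. Without WT LT-HSC library 1 the number of listed genes called was 13 against CMP/GMP, among 2152 of 14509 genes (14.8%), and 8 against MEP, among 2810 (19.4%).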

How the data were processed

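The deposited values are raw read counts per gene and per TE subfamily, which the authors made with Trim Galore 0.6.7, HISAT2, featureCounts 2.0.1 and DESeq2 1.34.0 on mm10, per the submitters' processing notes. Per the labels' protocols, polyA RNA was amplified with modified SMART-Seq2. Not given in the sources used here are the annotation, the strand setting and how TE and multimapping reads were assigned. Of the gene columns 32 were used. The other 8 could not be tied to single ST-HSC libraries and were left out.

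The whole TE table, its sums by family and the gene table were each fitted with edgeR 4.0.16 (quasi-likelihood, robust; R 4.3.3, limma 3.58.1) after filterByExpr (minimum count 10, minimum total 15). TE fits used gene library sizes and TMM factors, and TE sizes where ST-HSC entered. P-values were Benjamini-Hochberg adjusted over all rows tested and called under 0.05. The 9 c-kit+ libraries were fitted together, as were the WT populations. Single measures were compared by exact two-sided permutation tests (scipy 1.17.1). The lowest p is set by the number of libraries. Alternatives were DESeq2 1.42.0, RLE factors, no filter, TE sizes, a replicate block, each library left out in turn and, chosen after seeing the data, leaving out libraries that stand apart (under 13000 genes with a read, or in ST-HSC the library with the fewest TE subfamilies). The fits were tested on simulated data. All families with at least 1000 reads, the 2 subfamilies with most reads in B1, B2, B4, ID and MIR, and up to 4 called genes per list and comparison were named. Other names were chosen after their values were seen. Some called genes are not reported here. Ro60, an alias of Trove2, has no row of its own. The members and lists were chosen with earlier results of these data known. The limits given for counts of 0 cover counting error only.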

Additional observations from a re-analysis of the deposited data

Results flagged for a closer look

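In 14 of 105 groups of 4 libraries checked, 1 library lay far from the other 3, by a gap to its nearest neighbour above the 95% critical value of Dixon's ratio; chance gives about 1 in 20, or 5.25. All 14 belong to 3 of the libraries that stand apart. SINE reads were 62.6% of TE reads in WT LT-HSC library 1 (nearest other 54.5%), 61.7% in Dnmt3a KO LT-HSC library 2 (54.9%) and 60.8% in Dnmt3a KO ST-HSC library 2 (55.0%). B2 was 36.99% of SINE reads in WT LT-HSC library 1 (29.7%), with 28692 CPM (9892) and 231.5 per 1000 TE reads (161.3). The young share of B1 reads was 41.6% in Dnmt3a KO ST-HSC library 2 (34.8%), and the young share of B2 reads 55.5% in Dnmt3a KO LT-HSC library 2 (42.3%). Per 1000 TE reads, Dnmt3a KO LT-HSC library 2 held 261.6 B1 reads (214.5), 209.8 B2 reads (162.0), 106.1 B4 reads (124.6) and 23.8 MIR reads (30.8), the last 2 on the low side. Dnmt3a KO ST-HSC library 2 held 255.5 B1 reads (212.6) and 197.0 B2 reads (160.4).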

How the results depend on the processing

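The replicate numbers were not used as pairs in the main fits. In no comparison did every same-numbered pair correlate above 0.1 in its deviations from the group means (r from -0.182 to 0.16). In WT LT-HSC against CMP/GMP all same-numbered pairs were positive (0.0365 to 0.159), as in WT LT-HSC against MEP (0.0488 to 0.0954). They were also all positive in Dnmt3a KO against WT ST-HSC (0.0237 to 0.16) and in DKO against Sting KO (0.0486 and 0.125). The remaining comparisons held negative ones. Differently numbered pairs were not compared, and in groups of 2 libraries the deviations mirror each other. This check therefore cannot decide whether the numbers pair the libraries. Depth limits what is said of FAM and AmnSINE2, and the small groups limit the exact tests. The causes of the changes below were not tested.

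Without the libraries that stand apart, the MEP Dnmt3a KO difference was -0.982 for SINE reads per 100 gene reads, -1.51 percentage points for the SINE share of TE reads, 0.532 for the young B1 share and -3.95 for the young B2 share. In log2 it was -0.73 for B1, -0.98 for B2, -0.75 for MIR, -0.74 for ID, -0.75 for B4, -1.30 for B2_Mm1a, -0.61 for B1_Mm, -0.70 for PB1D10, -0.92 for MIRb, -0.73 for B1_Mus1, -0.79 for B3 and -0.93 for B2_Mm2. The ST-HSC SINE share differed by -0.0723 and the LT-HSC B2 share by 0.0607 between KO and WT. WT LT-HSC against ST-HSC gave -0.608 for the SINE share, -0.709 and -0.0499 for the young B1 and B2 shares, and -0.0803 for B2_Mm1a. WT LT-HSC against CMP/GMP gave -1.44 for the young B1 share, 0.43 for ID, 0.53 for MIR and -0.68 for B2_Mm1a, with 13 listed genes called, and 8 against MEP.

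Scaled to TE reads, WT LT-HSC against CMP/GMP gave -0.0528 for ID, -0.0166 for MIR, -0.0600 for B1, -0.10 for B2 and -0.27 for B2_Mm1a. MEP KO against WT gave -0.14 for MIR and -0.25 for MIRb. c-kit+ Dnmt3a KO against WT gave -0.0571 for B1, -0.0706 for B2, -0.00598 for MIR, -0.0384 for B2_Mm1a and -0.0504 for B1_Mm. With LTR reads left out of the TE total, the SINE share differed by -0.120 for Sting KO against WT and by -0.820 for DKO against Sting KO. With B1_Mm alone as young, the MEP B1 share rose by 2.43 points in KO without passing the test. With B2_Mm1a alone as young, the B2 share differed by 0.134 for c-kit+ Dnmt3a KO against WT and by -0.326 for DKO against Dnmt3a KO.

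For WT LT-HSC against CMP/GMP, DESeq2 called 27 SINE subfamilies and 348 of 964 TE subfamilies. RLE factors called 2 SINE subfamilies. The number called over all TE subfamilies with RLE factors is not given here, so the 2 cannot be set against it. Against MEP, DESeq2 called 5 and the replicate block 11. With the replicate block 1 listed gene was called for DKO against Dnmt3a KO. DESeq2 called 1 listed gene in CMP/GMP, 2 in MEP and 2 for the c-kit+ interaction.

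Leaving out 1 library at a time, KO against WT ranged as follows. SINE reads per 100 gene reads in LT-HSC ran from -1.02 to 1.30. The SINE share ran from -1.53 to 2.44 in LT-HSC, -0.0723 to 2.26 in ST-HSC and -0.959 to 0.116 in CMP/GMP. The B2 share ran from -1.96 to 1.32 in LT-HSC and -0.751 to 0.606 in CMP/GMP. The young B1 share ran from -1.58 to 3.10 in LT-HSC and -0.984 to 0.0710 in CMP/GMP, and the young B2 share from -5.34 to 3.22 and -1.13 to 1.68. SINE calls ran from 0 to 32 in MEP and 0 to 21 for the comparison of the Dnmt3a effect among populations, both highest without Dnmt3a KO MEP library 1. Listed genes called ran from 0 to 20 in MEP (the same library), 0 to 3 for c-kit+ Dnmt3a KO against WT and DKO against Dnmt3a KO, and 0 to 1 for the interaction.

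Between WT populations, LT-HSC against CMP/GMP ran from -2.73 to 0.494 for the SINE share, -1.44 to 2.15 for the young B1 share, 0.43 to 0.96 for ID, 0.53 to 0.96 for MIR and -0.68 to 1.11 for B2_Mm1a. SINE calls ran from 0 to 31 and, against MEP, 0 to 27, both highest without WT LT-HSC library 2, and listed genes from 2 to 13 (4 without WT CMP/GMP library 4 or WT LT-HSC library 4) and 2 to 8. LT-HSC against ST-HSC ran from -0.608 to 2.62 for the SINE share, -0.709 to 2.87 and -0.0499 to 6.97 for the young B1 and B2 shares, and -0.0803 to 1.04 for B2_Mm1a.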

Other observations

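MER131, which the table files under the class "SINE?" and which was therefore not among the 35 subfamilies, had 5810 reads in all, from 19 to 429 per library.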
